A study of Mus musculus with 12 samples.

Results

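Expression of the fibrillar collagen genes was followed in the dermis of mice with and without Cthrc1. The genes were Col1a1, Col1a2, Col2a1, Col3a1, Col5a1, Col5a2, Col5a3 and Col11a1, chosen by symbol and matched to Ensembl gene IDs. They are 8 of the 55401 genes in the table. Of the 8, 7 reached the mean level needed for testing, as did 14313 genes in all, and Col2a1 did not. That minimum was a mean of 1 FPKM over the 12 samples, where FPKM is a fragment count corrected for transcript length and for library size. The mice were C57BL/6 animals aged 6 weeks, either wild type (WT) or Cthrc1-/-. In a wounding model, dermis was sampled at day 0 or day 7. Each combination of genotype and day, 4 in all, had 3 biological replicates. Cthrc1 encodes a secreted protein with collagen triple helix repeats. The allele that removes it, the position of day 0 relative to wounding and any pooling of animals are not given in the sources used here.

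Fibrillar collagens are made as procollagen chains that fold together into a triple helix in the endoplasmic reticulum. After secretion their end propeptides are cut off and the trimmed molecules assemble into fibrils. Type I collagen forms most of the fibril mass of dermis, type III is laid down beside it and is prominent in early wound matrix, and type V is a minor component that starts fibrils and limits their width. Types II and XI are best known from cartilage.

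The libraries held between 48329668 and 76938132 counts. Cthrc1 was at 21.1 to 106.2 FPKM in the 6 WT libraries and at 0 to 0.1507 FPKM in the 6 Cthrc1-/- libraries, as their labels state. All 8 dermal fibroblast markers were found in every library, and their summed level was 898.3 to 962.9 FPKM at day 0 in WT against 143.2 to 618.8 in Cthrc1-/-. At day 7 it was 673.7 to 906.1 FPKM in WT against 395.7 to 791.6 in Cthrc1-/-. The libraries were not of dermal cells alone. The 6 epidermal keratinocyte markers summed to at least 2255 FPKM in each library. The 9 hair follicle markers found (of 10 listed) summed to 3.33 to 5.997 FPKM in the WT day 0 libraries, where up to 3 of them were at 0, but to 224.3 to 12120 FPKM in those of Cthrc1-/-. By day 7 the sums were 1652 to 3928 FPKM for WT, against 483.7 to 5327 for Cthrc1-/-. Pearson correlations between day 0 replicates, taken across genes on log2 CPM (counts scaled to library size), were 0.864 to 0.9295 for Cthrc1-/- against 0.9646 to 0.9691 for WT. In whole tissue such as this, fewer cells of a type and less RNA per cell cannot be told apart.

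The members lie on 7 chromosomes of the GRCm38 assembly. Col1a1 lies at chr11:94936224-94953042, Col1a2 at chr6:4504814-4541544, Col5a1 at chr2:27886425-28039514 and Col11a1 at chr3:114030540-114220718, all on the plus strand. Col2a1 lies at chr15:97975602-98004695 and Col5a3 at chr9:20770050-20815067, both on the minus strand. Col3a1 (chr1:45311538-45349706, plus strand) and Col5a2 (chr1:45374321-45503282, minus strand) are neighbours with their ends facing each other, 24614 bases apart. A short annotated miRNA gene, Gm47302, sits on the same strand inside Col3a1 at chr1:45311673-45311813. Because of this position, reads of the 2 genes cannot be told apart there. The counts of Gm47302 came to 1.232% of those of Col3a1. Other annotated genes overlapping a member held at most 0.08519% of its counts.

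Upstream sequence was matched for 5 of the 8 members in a RefSeq table on GRCm38.p6, and 4 are printed here because these genes differ most in level or in their course over time. Each run is the 250 bases before the RefSeq start, read 5′ to 3′ on the gene's strand. Capitals mark 5 searched motifs on either strand: the CCAAT box, the GC box GGGCGG, the TATAAA box, the CAGACA sequence found in Smad-binding elements, and TGANTCA, the AP-1 site. No match overlapped another. Col1a2 is shown from chr6:4505368-4505617, Col3a1 from chr1:45311288-45311537, Col5a1 from chr2:27886175-27886424 and Col11a1 from chr3:114030290-114030539, each on the plus strand. The RefSeq start of Col1a2 lies downstream of the start given above from GENCODE, so its window falls inside that annotated gene.
Col1a2: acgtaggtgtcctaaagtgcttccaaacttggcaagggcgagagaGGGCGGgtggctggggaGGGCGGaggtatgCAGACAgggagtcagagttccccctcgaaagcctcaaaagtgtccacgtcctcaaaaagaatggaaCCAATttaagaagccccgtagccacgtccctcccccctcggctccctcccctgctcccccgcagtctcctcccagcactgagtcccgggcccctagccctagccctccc
Col3a1: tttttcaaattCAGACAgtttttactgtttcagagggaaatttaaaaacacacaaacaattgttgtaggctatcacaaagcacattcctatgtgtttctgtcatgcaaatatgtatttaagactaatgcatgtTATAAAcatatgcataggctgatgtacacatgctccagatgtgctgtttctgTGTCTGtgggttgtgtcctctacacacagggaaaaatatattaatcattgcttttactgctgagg
Col5a1: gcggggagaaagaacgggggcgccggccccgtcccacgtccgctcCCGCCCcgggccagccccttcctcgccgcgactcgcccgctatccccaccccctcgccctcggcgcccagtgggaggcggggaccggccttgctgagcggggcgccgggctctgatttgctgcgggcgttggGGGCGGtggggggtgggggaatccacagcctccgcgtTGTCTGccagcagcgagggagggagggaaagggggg
Col11a1: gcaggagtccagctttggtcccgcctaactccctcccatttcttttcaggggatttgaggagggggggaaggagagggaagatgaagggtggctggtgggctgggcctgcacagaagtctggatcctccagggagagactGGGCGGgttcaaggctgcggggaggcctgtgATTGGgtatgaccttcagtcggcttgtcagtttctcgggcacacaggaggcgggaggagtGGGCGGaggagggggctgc
The 4 windows differed in base composition, with 35.2% G and C upstream of Col3a1, 62.0% upstream of Col1a2, 62.4% upstream of Col11a1 and 76.4% upstream of Col5a1. Col3a1 held the one TATA match, at position -117 from the start, and no GC box. Col1a2, Col5a1 and Col11a1 each held 2 GC boxes, and Col1a2 and Col11a1 each held 1 CCAAT box. The Smad sequence occurred once in Col1a2 and in Col5a1 and 2 times in Col3a1, and the AP-1 site in none of them. The Col5a3 window (62.8% G and C) held 2 GC boxes and 1 CCAAT box. Among 32851 promoters of the same length, 33.85% held the CCAAT box, 32.74% the GC box, 12.37% the TATA box, 17.13% the Smad sequence and 6.75% the AP-1 site. These are letter matches only.

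The type I and type III chains were among the most abundant transcripts of the tissue. By mean FPKM over the 12 samples Col1a1 stood at rank 27 of all genes (1532 FPKM), Col3a1 at 50 (906.4), Col1a2 at 72 (664.5), Col5a1 at 629 (74.64), Col5a2 at 799 (58.5), Col5a3 at 1635 (29.49) and Col11a1 at 13800 (1.177). Together the 8 members took 4.948% ± 0.772 of all WT counts at day 0 and 4.212% ± 0.940 at day 7 (SD, n = 3). For Cthrc1-/- the shares were 1.111% ± 0.870 and 2.447% ± 0.648 (SD, n = 3). Counting error was small beside this, since no sample's 95% Wilson interval was wider than 0.0116 percentage points. The intervals cover counting error only. The log2 CPM of the 2 type I chains correlated at r = 0.9878 over the 12 samples, and Col5a1 with Col5a2 at 0.991. Col1a1 with Col11a1 gave 0.138. These correlations describe 12 samples that fall in 4 groups and share library scaling.

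**Figure D1:**
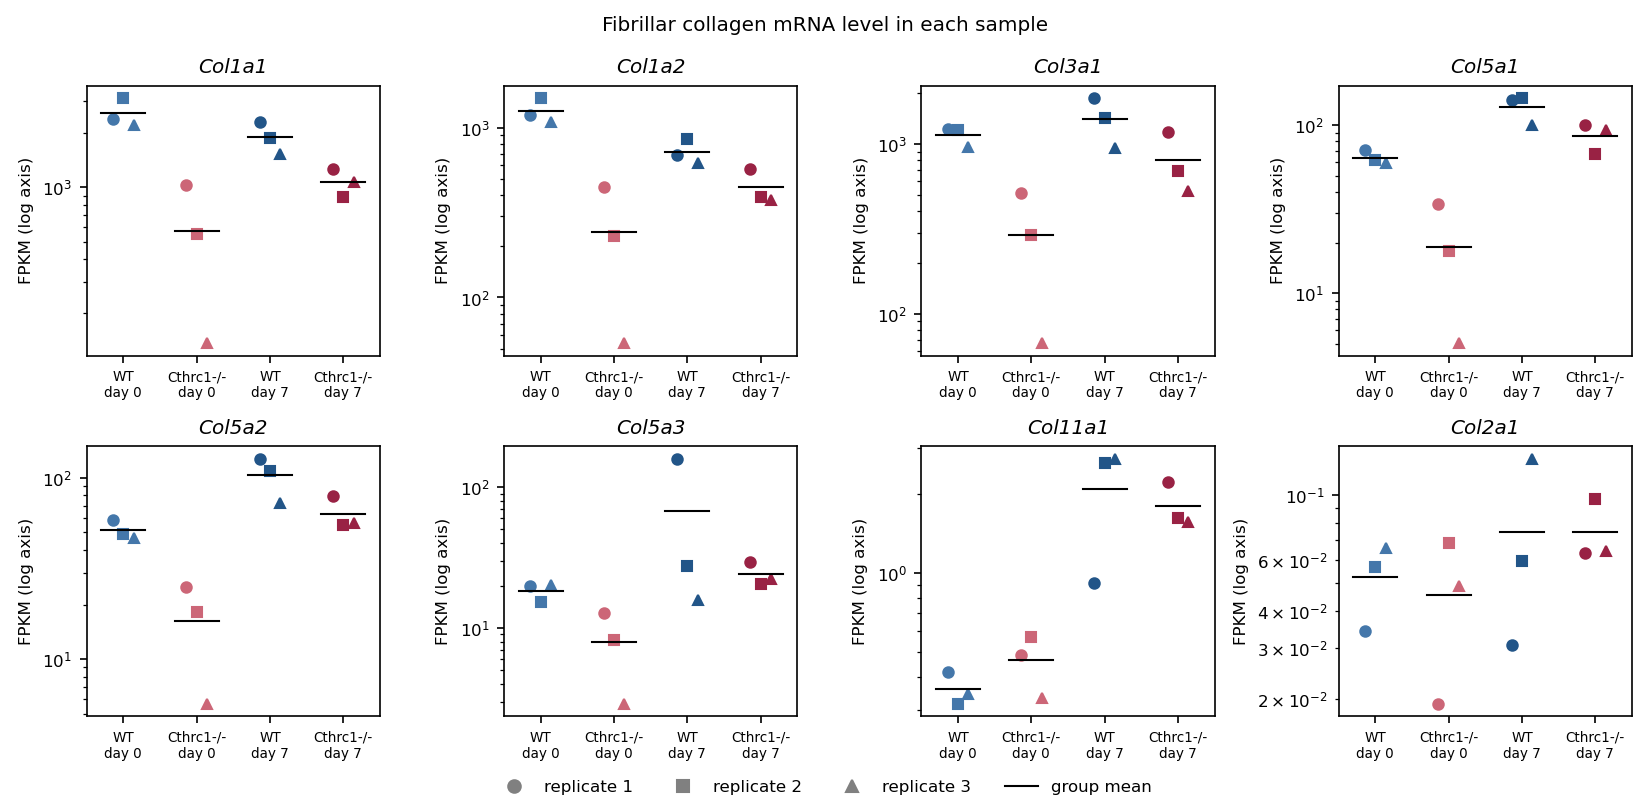
FPKM (log axis, scaled separately for each gene) of the 8 fibrillar collagen genes in each of the 12 samples, by group; symbols are replicates 1 to 3 and bars are group means. In the 3 Cthrc1-/- day 0 samples Col1a1 ran from 136.5 to 1033 FPKM, below all WT day 0 samples, while Col11a1 was above its day 0 values in every day 7 sample.

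The type I chains were examined first between genotypes on day 0. Col1a1, the pro-alpha-1 chain of type I collagen, was at 2410, 3122 and 2211 FPKM in WT replicates 1 to 3. In Cthrc1-/- it was at 1033, 554.8 and 136.5 FPKM. The groups did not overlap, and replicate 3 of Cthrc1-/- stood far below the other two. Mean Col1a1 was 2581 ± 479.3 FPKM in WT and 574.6 ± 448.4 in Cthrc1-/- (SD, n = 3), and its log2 change was -2.23 (SE 0.593, edgeR adjusted p 0.0543), just outside the threshold of 0.05. Col1a2, the pro-alpha-2 chain, was at 1183, 1490 and 1075 FPKM in WT and at 444.9, 230.0 and 53.66 in Cthrc1-/-. Again every Cthrc1-/- sample was below every WT sample. Col1a2 fell with a log2 change of -2.43 (SE 0.609, edgeR adjusted p 0.0480).

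The type III and type V chains lay lower in Cthrc1-/- on day 0 in every sample too, without passing the test. Col3a1, the only chain of type III collagen, was at 1226, 1211 and 952.7 FPKM in WT and 514.0, 291.0 and 66.93 in Cthrc1-/- (log2 change -2.02, SE 0.644, edgeR adjusted p 0.0835). Col5a1, the main type V chain, was at 71.15, 61.80 and 59.48 FPKM against 33.95, 17.87 and 5.026 (log2 change -1.82, SE 0.549, edgeR adjusted p 0.0734). Col5a2, its usual partner chain, was at 58.42, 49.03 and 46.35 FPKM against 25.07, 18.11 and 5.680 (log2 change -1.73, SE 0.484, edgeR adjusted p 0.0627). In all 3 genes replicate 3 of Cthrc1-/- held the lowest value and replicate 1 the highest. Col5a3, a chain found in some type V molecules, was at 19.87, 15.20 and 20.13 FPKM against 12.81, 8.189 and 2.906 (log2 change -1.28, edgeR adjusted p 0.323). Col11a1, a type XI chain that can also assemble with type V chains, went the other way in its mean, at 0.4188, 0.3170 and 0.3441 FPKM against 0.4870, 0.5704 and 0.3332, with overlapping groups (log2 change 0.27, edgeR adjusted p 0.646).

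Of the 7 tested members, 1 was called on day 0 (Col1a2, lower), where edgeR called 5.78% of all tested genes in either direction and 2.26% lower. Every Cthrc1-/- sample was below every WT sample for 6 of the 7, against 19.8% of all tested genes. The median log2 change of the members was -1.82, beside -0.05 for all genes tested. The Col1a2 call was lost when only the day 0 samples were fitted (edgeR adjusted p 0.115), without the filter on low values (0.0758), without any 1 WT day 0 replicate (0.117 to 0.138) and without Cthrc1-/- day 0 replicate 2 (0.129). It was also lost without WT day 7 replicate 2 or 3 or any 1 Cthrc1-/- day 7 replicate (0.0602 to 0.0718), and it held without Cthrc1-/- day 0 replicate 3 (log2 change -1.94, edgeR adjusted p 0.0410). In the order given, the fits that lost it called 19, 275, 18 to 48, 154 and 193 to 606 genes in all. The reported fit called 827, the fit without Cthrc1-/- day 0 replicate 3 called 238 and that without replicate 1 called 2146. Without Cthrc1-/- day 0 replicate 1 the log2 change was -3.23 for Col1a2, -3.00 for Col1a1 and -2.75 for Col3a1 (edgeR adjusted p 0.0139, 0.0165 and 0.0309). DESeq2 called 5 members lower (all but Col5a3 and Col11a1), where it called 8.24% of all tested genes lower. limma on log2(FPKM + 1) called 4 lower, against 1.85% of all tested genes.

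These differences moved with the cell type markers. In Cthrc1-/- day 0 replicate 3, the library with the lowest members, the hair follicle markers summed to 12120 FPKM and the fibroblast markers to 143.2; in replicate 1, with the highest members, the sums were 224.3 and 618.8. All 9 tested hair follicle markers were called higher in Cthrc1-/- on day 0 (median log2 change 10.59). None of the 8 fibroblast markers was called by edgeR or limma, while 7 had an unadjusted p under 0.05 and DESeq2 called 4, and their median log2 change was -1.20. Of all 14313 tested genes 4068 had an unadjusted edgeR p under 0.05 and DESeq2 called 2787. The medians were also below 0 for the tested markers of endothelial cells (4), macrophages (6), Schwann cells (4), adipocytes (3), skeletal muscle (7) and epidermal keratinocytes (6), from -1.98 for adipocytes to -0.29 for keratinocytes. edgeR called 0 in each of these lists, with 0 to 3 at an unadjusted p under 0.05, DESeq2 called 0 to 2 and limma 0 to 1. With the hair follicle marker level as a covariate the day 0 log2 change of Col1a2 was -0.88 (edgeR adjusted p 0.891), Col1a1 -0.69, Col3a1 -0.27, Col5a1 -0.44, Col5a2 -0.47 and Col5a3 0.81, and no member was called. That fit called 7 of all 14313 tested genes on day 0. Tissue makeup and genotype cannot be told apart in the WT and Cthrc1-/- day 0 samples, whose hair follicle sums did not overlap.

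**Figure D2:**
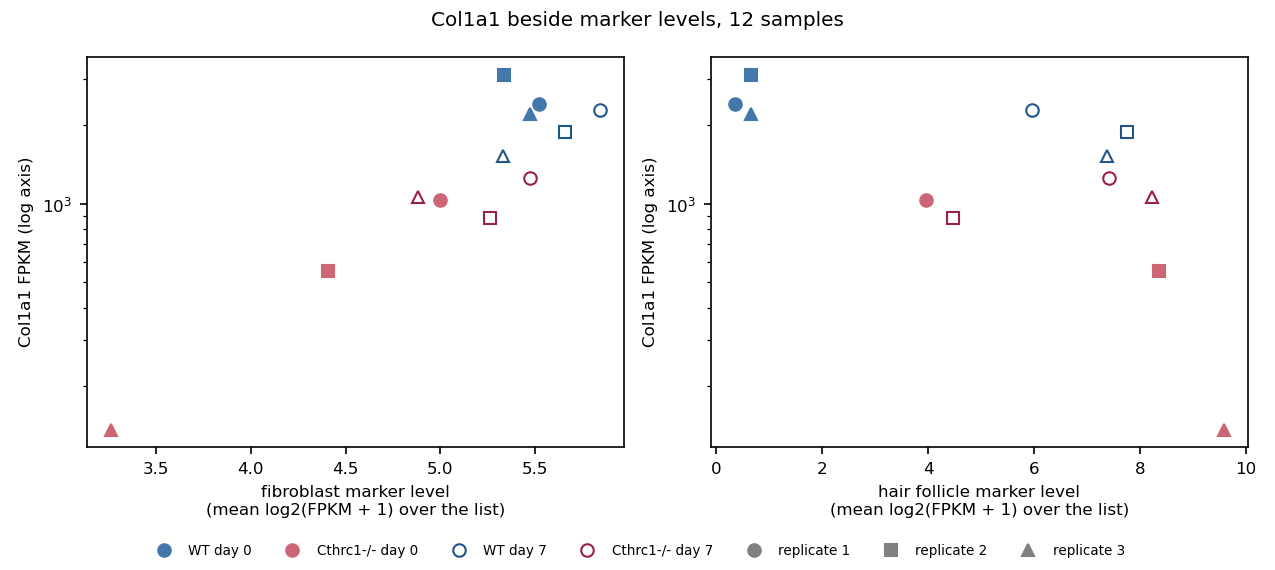
Col1a1 (FPKM, log axis) against the mean log2(FPKM + 1) of 8 dermal fibroblast markers (left) and of 9 hair follicle markers (right) in the 12 samples; filled symbols are day 0, open symbols day 7, and shapes are replicates. The Cthrc1-/- day 0 samples run from low Col1a1 with low fibroblast and high hair follicle levels (replicate 3) to higher Col1a1 in replicate 1, and the WT day 7 samples combine Col1a1 of 1525 to 2293 FPKM with hair follicle levels of 5.96 to 7.76.

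On day 7 the 7 tested members all had lower means in Cthrc1-/-, and none passed the test. Col1a1 was at 2293, 1887 and 1525 FPKM in WT and 1260, 884.5 and 1065 in Cthrc1-/- (log2 change -0.93, SE 0.572, edgeR adjusted p 0.957). Col1a2 was at 694.2, 852.2 and 616.0 FPKM against 567.3, 393.0 and 373.5 (log2 change -0.78, edgeR adjusted p 0.968). Neither type I chain overlapped between the genotypes. Col3a1 was at 1852, 1426 and 943.2 FPKM against 1175, 693.4 and 525.1, with Cthrc1-/- replicate 1 above WT replicate 3. Col5a1 was at 141.5, 144.5 and 100.5 FPKM against 99.93, 66.90 and 93.00, which did not overlap by a narrow margin. Col5a2, at 127.8, 109.2 and 72.25 against 79.20, 54.69 and 56.22, did overlap.

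For the 2 least abundant tested chains the WT day 7 replicates were far apart. Col5a3 was at 159.3, 27.58 and 15.74 FPKM in WT, so its mean of 67.54 ± 79.68 (SD, n = 3) rested on replicate 1. In Cthrc1-/- it was at 29.27, 20.56 and 22.29 FPKM. Its log2 change of -1.67 between genotypes became 0.12 without WT day 7 replicate 1. That library's macrophage markers summed to 1042 FPKM, the highest value of the 12 samples. Its epidermal keratinocyte sum (2255 FPKM) was the lowest of the 12, and its hair follicle sum (1652 FPKM) the lowest of WT day 7. The part of any of these cell types in the result was not tested. Col11a1 was at 0.9157, 2.616 and 2.724 FPKM in WT and 2.216, 1.622 and 1.561 in Cthrc1-/-, and here WT replicate 1 was the lowest. No member was called between genotypes on day 7 by edgeR, DESeq2 or limma, and none had an unadjusted edgeR p under 0.05 (DESeq2 gave 0.0284, unadjusted, for Col5a3), where edgeR called 0.021% of all tested genes. Every Cthrc1-/- sample was below every WT sample for 3 of 7 (Col1a1, Col1a2 and Col5a1), against 2.67% of tested genes.

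Averaged over both days, the log2 change between genotypes was -1.58 for Col1a1 (SE 0.410, edgeR adjusted p 0.105), -1.60 for Col1a2, -1.47 for Col3a1, -1.24 for Col5a1, -1.26 for Col5a2, -1.47 for Col5a3 and 0.01 for Col11a1. edgeR called none of the 7, against 0.559% of all tested genes, although 6 had an unadjusted p under 0.05, as did 3025 of 14313 genes. DESeq2 called 5 lower, against 4.51% of all tested genes, and limma called 0. The test of whether the genotype difference itself changed between days called no member with edgeR, DESeq2 or limma. None had an unadjusted edgeR p under 0.05, while that of Col1a2 was 0.0421 with DESeq2 and 0.0299 with limma. In that test edgeR called 0.014% of all genes. The largest such difference, 1.65 on the log2 scale for Col1a2, had an edgeR adjusted p of 0.368, so the day 7 gap was not shown to differ from the day 0 gap.

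**Figure D3:**
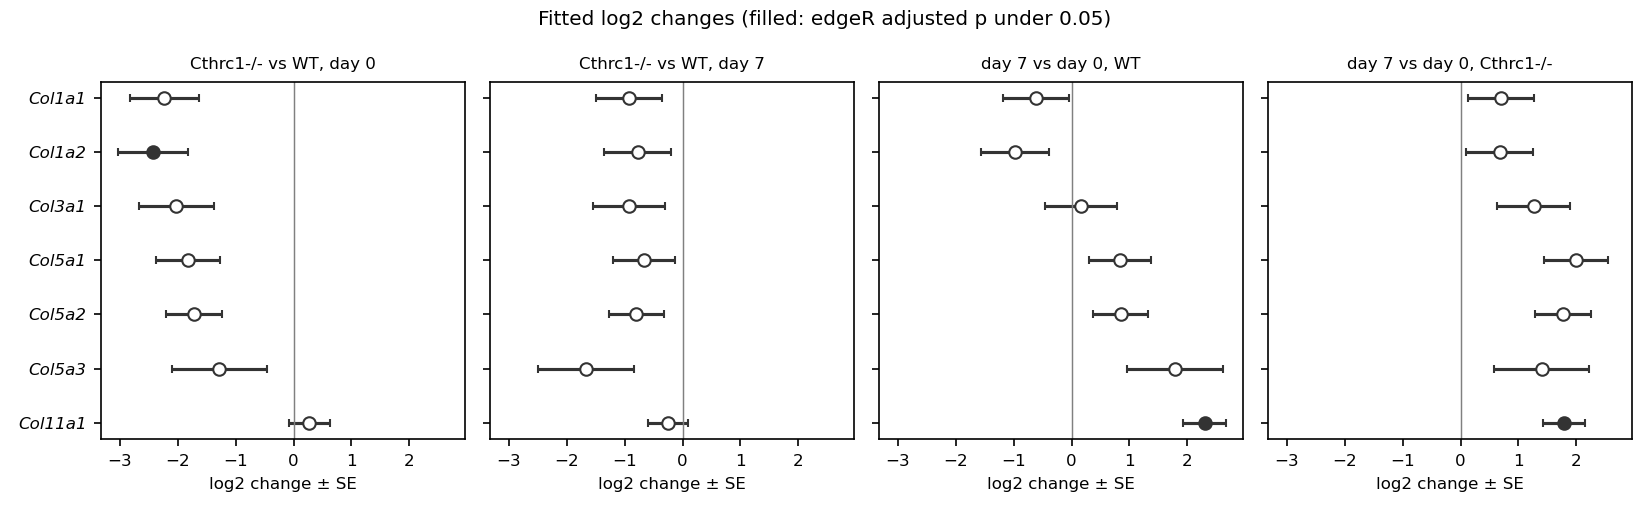
Fitted log2 change ± SE of the 7 tested fibrillar collagen genes in 4 comparisons, in 1 panel each; filled points have an edgeR adjusted p under 0.05. Col1a2 is filled on day 0 between genotypes (-2.43) and Col11a1 in both comparisons between days (2.30 in WT and 1.78 in Cthrc1-/-).

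Between days Col11a1 was the member that passed the test, in both genotypes. It rose in WT from 0.3600 ± 0.0527 to 2.085 ± 1.014 FPKM (SD, n = 3), with a log2 change of 2.30 (SE 0.371, edgeR adjusted p 0.00657). In Cthrc1-/- it rose from 0.4635 ± 0.1204 to 1.800 ± 0.3622 FPKM (SD, n = 3), with a log2 change of 1.78 (SE 0.364, edgeR adjusted p 0.0443). Its groups did not overlap in either genotype. Col11a1 passed the filter on low values only through its day 7 samples (mean 1.943 FPKM, against 0.4118 on day 0), so its count among the called members carries that selection. Without the filter its edgeR adjusted p was 0.0083 in WT and 0.0554 in Cthrc1-/-. With the hair follicle level as covariate the WT change was 2.25 (edgeR adjusted p 0.159). That fit called 18 of all tested genes in WT between days, where hair follicle level and day cannot be told apart. The WT call held in each of the 12 refits without 1 sample. In Cthrc1-/- it held in 2 of the 12, those without WT day 7 replicate 1 or 3, and the edgeR adjusted p ran from 0.00796 to 0.148 over the 12.

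Col5a1 and Col5a2 were higher on day 7 in every sample of both genotypes. In WT Col5a1 went from 64.14 ± 6.175 to 128.9 ± 24.6 FPKM and Col5a2 from 51.27 ± 6.338 to 103.1 ± 28.29 FPKM (SD, n = 3), with log2 changes of 0.83 and 0.85 that did not pass (edgeR adjusted p 0.310 and 0.245). In Cthrc1-/- the log2 changes were 1.99 for Col5a1 (SE 0.552, edgeR adjusted p 0.0952) and 1.77 for Col5a2 (SE 0.485, edgeR adjusted p 0.0930). DESeq2 and limma called both of them higher in Cthrc1-/-, as did edgeR with the hair follicle covariate. These fits called 5.23%, 4.62% and 2.06% of all tested genes higher. Col5a3 had a log2 change of 1.79 in WT (edgeR adjusted p 0.164), which was 0.10 without WT day 7 replicate 1, and 1.40 in Cthrc1-/- (0.399).

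Col3a1 had a log2 change of 0.16 in WT (edgeR adjusted p 0.886), from 1130 ± 153.6 to 1407 ± 454.8 FPKM, and 1.26 in Cthrc1-/- (0.322), where every day 7 sample was above every day 0 sample. In WT, Col1a1 had a log2 change of -0.61 and overlapping groups (edgeR adjusted p 0.495). Col1a2 had -0.98 there and was lower in every day 7 sample, from 1250 ± 215.2 to 720.8 ± 120.3 FPKM (SD, n = 3; edgeR adjusted p 0.276). In Cthrc1-/- both were higher on average on day 7 (log2 changes 0.70 and 0.67, edgeR adjusted p 0.561 and 0.583), with overlap. With the hair follicle covariate the WT changes of Col1a1 and Col1a2 turned to 1.11 and 0.81. That of Col3a1 was 2.08, of Col5a1 2.41, of Col5a2 2.17 and of Col5a3 3.74, and the median of the 7 members was 2.17, with none called. In WT the hair follicle level was 0.36 to 0.66 on day 0 and 5.96 to 7.76 on day 7. Day and hair follicle level cannot be told apart there, and the fit called 18 of all 14313 tested genes. The comparisons between days use the same day 0 samples as the genotype comparison on day 0.

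In WT, 1 of 7 tested members was called between days (Col11a1, higher), where edgeR called 13.1% of all tested genes in either direction and 6.04% higher. Every day 7 sample was above every day 0 sample for 3 members (Col5a1, Col5a2 and Col11a1), against 29.8% of genes, and below for 1 (Col1a2), against 14.1%. In Cthrc1-/-, 1 of 7 was called (Col11a1, higher), where 1.46% of all genes were called in either direction and 0.859% higher. There every day 7 sample was higher for 5 members (all but Col1a1 and Col1a2), against 21.5% of genes. The members' median log2 change was 0.83 in WT and 1.40 in Cthrc1-/-, beside 0.00 and -0.01 for all genes tested. Col11a1 passed the filter on low values only through its day 7 samples. The member counts and medians given here include it, so they carry that selection.

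Col2a1, the type II collagen chain of cartilage, was near the limit of detection. It ranged from 0.0193 to 0.1331 FPKM over the 12 samples, or 13 to 87 counts, and every pair of groups overlapped. Without the filter on low values its edgeR adjusted p was 0.747 or more in each comparison. Of 8 chondrocyte markers 7 were also below a mean of 1 FPKM, among them Acan, Col9a1 and Matn1, with up to 3 of the 8 at 0 in a sample. The exception was Sox9, which hair follicle cells express as well. Outside the 8 members, the remaining fibrillar collagen genes were also low. Col11a2 group means were 0.3725 to 0.6369 FPKM. Col24a1 went from 0.3136 ± 0.1448 FPKM at day 0 to 1.763 ± 0.5634 at day 7 in WT (SD, n = 3; edgeR adjusted p 0.00974 without the filter). In Cthrc1-/- it went from 0.1935 ± 0.0388 to 0.8007 ± 0.0129 FPKM (SD, n = 3; edgeR adjusted p 0.0592 without the filter). Its interaction of genotype and day was not called (edgeR adjusted p 0.880 without the filter). Col27a1, the one of these that was tested, was not called in any comparison of the reported edgeR fit. With only the WT samples fitted, edgeR called it between days (log2 change 0.71, adjusted p 0.0315). limma called it between days in Cthrc1-/- (log2 difference 0.96, adjusted p 0.0430).

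Ratios of 2 collagens within a sample do not depend on the library's total. Type III to type I collagen mRNA, as Col3a1 to Col1a1, was 0.5085, 0.3880 and 0.4310 in WT day 0 and 0.4978, 0.5246 and 0.4904 in Cthrc1-/- day 0. On day 7 it was 0.8079, 0.7557 and 0.6185 in WT and 0.9322, 0.7840 and 0.4929 in Cthrc1-/-. In WT every day 7 ratio was above every day 0 ratio, and in Cthrc1-/- replicate 3 of day 7 stayed among the day 0 values. Between days the ratio was 1.52-fold higher on average over genotypes (log2 difference 0.61, exact permutation p 0.015, adjusted p 0.0375 over 10 tests, two-sided). Between genotypes it did not pass (log2 difference 0.09, exact permutation p 0.615). The Cthrc1-/- day 0 ratios stayed between 0.4904 and 0.5246 while Col1a1 itself spanned 136.5 to 1033 FPKM. Without any 1 of Cthrc1-/- day 0 replicates 1 to 3, WT day 0 replicates 2 or 3, or WT day 7 replicates 1 or 2, the adjusted p between days was 0.05 to 0.0625.

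Type V to type I mRNA, as Col5a1 to Col1a1, separated the days without overlap. It was 0.0295, 0.0198 and 0.0269 in WT day 0 and 0.0329, 0.0322 and 0.0368 in Cthrc1-/- day 0. On day 7 it was 0.0617, 0.0766 and 0.0659 in WT and 0.0793, 0.0756 and 0.0873 in Cthrc1-/-. The ratio was 2.54-fold higher on day 7 (log2 difference 1.34, exact permutation p 0.005, the smallest that 400 arrangements can give, adjusted p 0.025). It was 1.27-fold higher in Cthrc1-/- than in WT (log2 difference 0.34, exact permutation p 0.01, adjusted p 0.0333), with non-overlapping groups on day 0 and overlap on day 7. Without any 1 Cthrc1-/- day 0 replicate the genotype difference was 0.31 to 0.36 (adjusted p 0.0625). By day it was 0.44 on day 0 and 0.25 on day 7. On day 0, where the hair follicle sums of the genotypes did not overlap, tissue makeup and genotype cannot be told apart.

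The 2 chains of type I collagen, Col1a1 to Col1a2, stood at 2.062 ± 0.030 in WT and 2.425 ± 0.112 in Cthrc1-/- at day 0 (SD, n = 3). The values at day 7 were 2.664 ± 0.568 and 2.441 ± 0.356 (SD, n = 3). Neither genotype (log2 difference 0.06, exact permutation p 0.625) nor day (0.17, exact permutation p 0.155) passed, though on day 0 every Cthrc1-/- ratio was above every WT ratio. Col5a2 to Col5a1 was 0.798 ± 0.021 in WT day 0 and 0.961 ± 0.201 in Cthrc1-/- day 0, and 0.793 ± 0.098 and 0.738 ± 0.117 on day 7 (SD, n = 3). Its differences by genotype (0.07, exact permutation p 0.62) and day (-0.19, exact permutation p 0.195) did not pass.

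Col1a1 was also set against the dermal fibroblast markers, as its FPKM over their geometric mean. The ratio was 55.26, 81.98 and 52.43 in WT day 0 and 34.74, 28.85 and 18.04 in Cthrc1-/- day 0. On day 7 it was 41.21, 39.05 and 39.78 in WT and 29.73, 24.23 and 38.36 in Cthrc1-/-. The genotypes did not overlap on either day, on day 7 by a narrow margin (38.36 against 39.05). The ratio was 1.77-fold lower in Cthrc1-/- (log2 difference -0.82, exact permutation p 0.005, adjusted p 0.025). The difference was -1.24 on day 0 and -0.40 on day 7. Without Cthrc1-/- day 0 replicate 3 it averaged -0.69 (adjusted p 0.025). Between days the log2 difference was -0.21 (exact permutation p 0.41). In Cthrc1-/- day 0 replicates 1 to 3 the ratio fell as the hair follicle sum rose (224.3, 4949 and 12120 FPKM). In Cthrc1-/- day 7 the ratio was highest in replicate 3, where that sum was also highest (5327 FPKM). Tissue makeup and genotype cannot be told apart for this ratio on day 0. The markers did not move alike on day 7. Mean Pdgfra was 12.19 FPKM in WT and 6.617 in Cthrc1-/-, and mean Pdgfrb was 24.31 and 23.17 FPKM.

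**Figure D4:**
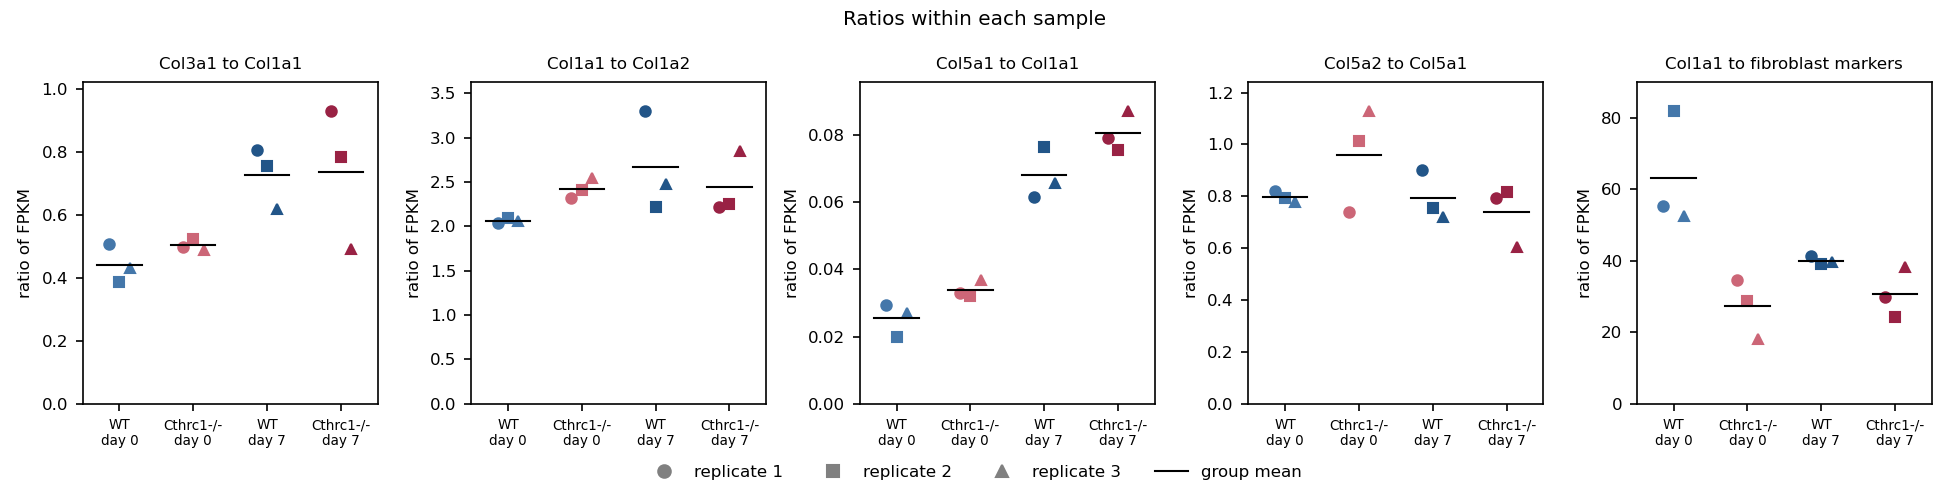
Ratios of FPKM within each of the 12 samples, by group, in 5 panels with axes from 0; symbols are replicates 1 to 3 and bars are group means. Col5a1 to Col1a1 lies between 0.0198 and 0.0368 in all day 0 samples and between 0.0617 and 0.0873 in all day 7 samples. Col1a1 to fibroblast markers is lower in Cthrc1-/- on both days, on day 7 by a narrow margin.

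Genes that act on fibrillar collagen were read from 4 lists. Among all tested genes edgeR called 5.78% on day 0 between genotypes, including 2.26% lower. It called 13.1% between days in WT, including 6.04% higher, and 1.46% between days in Cthrc1-/-. Of 14313 genes, 4068, 4658 and 2596 had an unadjusted p under 0.05 in those 3 comparisons. DESeq2 called 2787, 3551 and 1409 genes and limma 601, 1911 and 775. Of 23 genes of chain folding and secretion, 22 were tested, and on day 0 edgeR called 0 higher and 3 lower in Cthrc1-/- (median log2 change -1.19). Sparc, a secreted collagen-binding protein, fell from 2088 ± 292 to 509.4 ± 327.0 FPKM (SD, n = 3; log2 change -2.11, edgeR adjusted p 0.03996). Fkbp14, a prolyl isomerase of the endoplasmic reticulum, fell from 7.713 ± 0.6068 to 2.422 ± 1.229 FPKM (SD, n = 3; log2 change -1.75, edgeR adjusted p 0.0308). Mia3, needed for procollagen export, fell from 13.92 ± 0.3001 to 8.176 ± 1.870 FPKM (SD, n = 3; -0.88, edgeR adjusted p 0.0288). Without Cthrc1-/- day 0 replicate 3 Fkbp14 had an edgeR adjusted p of 0.0504 and Mia3 0.0573. With the hair follicle covariate 0 of the 22 were called on day 0, in a fit that called 7 of all tested genes. Between days in WT 3 of the 22 were called higher (Plod2, P4ha3 and Crtap) and 1 lower, with a median of 0.55. The share called over all tested genes was 13.1% there. Plod2, a lysyl hydroxylase of the telopeptides, rose with a log2 change of 3.32 (edgeR adjusted p 0.0306), but without WT day 7 replicate 1 it was 1.56 (0.0544). P4ha3, a prolyl 4-hydroxylase subunit, rose in WT from 0.749 ± 0.432 to 7.04 ± 3.06 FPKM (SD, n = 3; log2 change 3.07, edgeR adjusted p 0.0205). In Cthrc1-/- P4ha3 was the 1 gene of the list that edgeR called, from 0.1282 ± 0.1118 to 4.282 ± 0.638 FPKM (SD, n = 3; log2 change 4.83, edgeR adjusted p 0.0224). There 8 of the 22 had an unadjusted edgeR p under 0.05, as did 2596 of all 14313 tested genes. DESeq2 called 5 of the 22 and limma 6. P4ha3 passed the filter on low values only through its day 7 samples, as Col11a1 did, so its calls between days carry that selection. P3h2, a prolyl 3-hydroxylase, fell in WT with a log2 change of -1.53 (edgeR adjusted p 0.0166).

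Of 11 genes of propeptide removal 6 were tested. Adamts14, a procollagen N-proteinase, fell in Cthrc1-/- on day 0 from 9.025 ± 1.082 to 1.787 ± 1.333 FPKM (SD, n = 3; log2 change -2.40, edgeR adjusted p 0.0373), the one edgeR call of the list (median -1.68), where DESeq2 called 4 of the 6 and limma 3. Between days in WT Pcolce2, an enhancer of the C-proteinase, fell from 20.37 ± 1.463 to 4.127 ± 1.588 FPKM (SD, n = 3; log2 change -2.50, edgeR adjusted p 0.0294, and 0.0830 without WT day 7 replicate 1). Pcolce2 was the 1 call among the 6 there, where edgeR called 13.1% of all tested genes. In Cthrc1-/- edgeR and limma called none of the 6 between days, 1 had an unadjusted p under 0.05 and DESeq2 called 1.

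Of 11 collagen receptors 8 were tested, and on day 0 edgeR called 2 lower in Cthrc1-/-, Mrc2, an endocytic collagen receptor (log2 change -1.58, edgeR adjusted p 0.0454), and Itga2, an integrin subunit (-1.34, 0.0326). Mrc2 missed the threshold without Cthrc1-/- day 0 replicate 3 (edgeR adjusted p 0.0665). Between days in WT 2 were called lower, Ddr1, a receptor tyrosine kinase (-1.22, edgeR adjusted p 0.0099), and Itga2 (-1.07, 0.0303). Over all 14313 tested genes 1016 were called lower there. Of 8 genes of fibrillar collagen cleavage 7 were tested. edgeR and limma called none between genotypes on day 0, while 3 had an unadjusted p under 0.05 and DESeq2 called 2. In WT 3 were called higher on day 7, the collagenases Mmp8 and Mmp13 and the gelatinase Mmp9 (list median 0.65), against 6.04% of all tested genes. Mmp8 was at 0 to 0.186 FPKM in WT day 0 and 0.7191, 0.9159 and 11.56 in WT day 7 from lowest to highest (log2 change 5.66, edgeR adjusted p 0.0328). Without WT day 7 replicate 1 it was 3.16 (edgeR adjusted p 0.0855). Mmp13 went from 0.7655 ± 0.477 to 10.63 ± 11.57 FPKM (SD, n = 3; log2 change 3.57, edgeR adjusted p 0.0231). Its WT day 7 values were 2.06, 6.03 and 23.79 FPKM from lowest to highest, and without replicate 2 its log2 change was 2.18 (edgeR adjusted p 0.0592). Mmp13 passed the filter on low values only through its day 7 samples and Mmp8 only through the highest WT day 7 library, so their calls carry that selection.

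With the hair follicle covariate edgeR called 0 genes of these 4 lists on day 0 between genotypes or in WT between days, and still called P4ha3 between days in Cthrc1-/-. That fit called 7, 18 and 529 of all tested genes in those 3 comparisons. In the 12 refits that each left out 1 sample, Ddr1 was the one list gene called in all 12. The other calls named here held in 2 (Mrc2) to 9 (P3h2 and P4ha3, in WT) of the 12, with edgeR adjusted p of up to 0.138. Over all tested genes these refits called 18 to 2146 on day 0, 527 to 3005 in WT between days and 5 to 911 in Cthrc1-/-. edgeR called 0 genes of these lists between genotypes on day 7, averaged over days and in the interaction. For chain folding and secretion 10, 18 and 4 genes had an unadjusted p under 0.05 in those 3 comparisons, DESeq2 called 1, 13 and 0, and limma 0, 1 and 0. Of all 14313 tested genes 782, 3025 and 2164 had such a p, DESeq2 called 62, 1467 and 681, and limma 8, 119 and 4. In the other 3 lists at most 5 genes had an unadjusted p under 0.05 in any of the 3 comparisons, DESeq2 called at most 4 and limma at most 1.

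**Figure D5:**
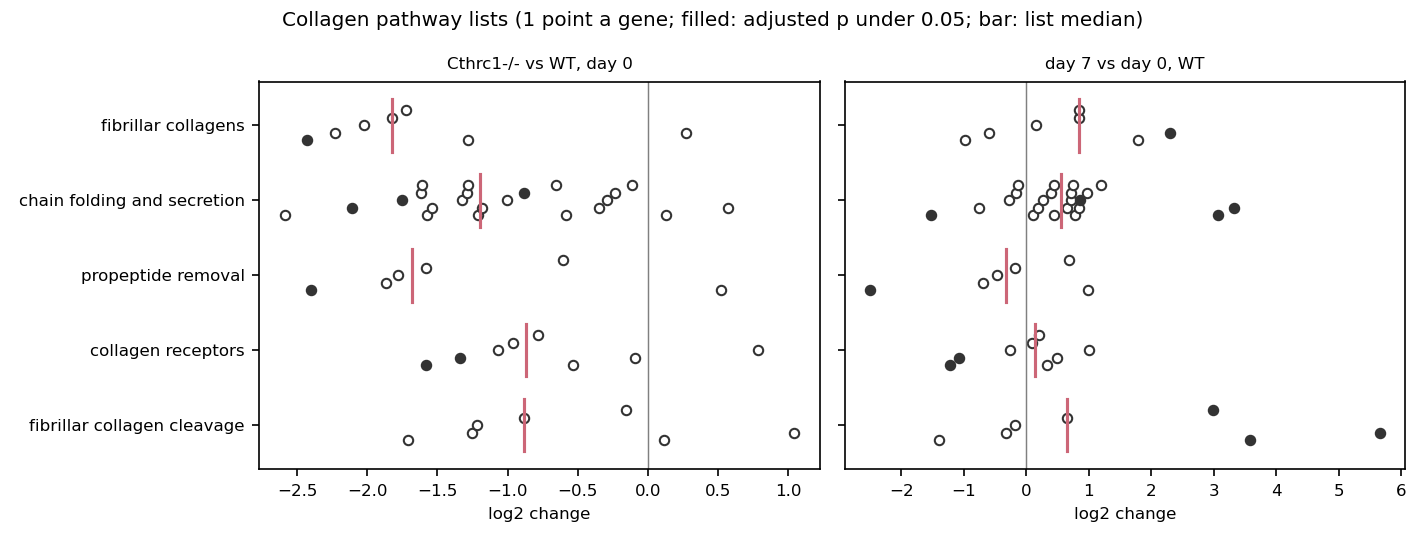
Fitted log2 change of each tested gene in the fibrillar collagens and in 4 lists of genes acting on them, between genotypes on day 0 (left) and between days in WT (right); filled points have an edgeR adjusted p under 0.05 and the bar is the list's median. On day 0 the medians are below 0 in all 5 rows (members -1.82), and on day 7 the highest point is Mmp8 in the cleavage row (5.66, and 3.16 without WT day 7 replicate 1).

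The genes whose log2 CPM followed a member most closely over the 12 samples were named by Pearson correlation. For Col1a1 these were Sparc (r = 0.9915), Fkbp7 (0.9907), Ccdc80 (0.9857), Srpx (0.9809) and Pcolce (0.975). For Col3a1 they were Gm47302 (0.9874), the gene inside Col3a1 itself, then Fkbp9 (0.9835), Aebp1 (0.9821), Sec24d (0.9776) and Antxr2 (0.9723). For Col5a1 they were Mmp23 (0.9921), B3gnt9 (0.986), Mrc2 (0.9854), Arap1 (0.9802) and Lamp1 (0.9788). The samples fall in 4 groups that differ in marker levels, and the correlations are given as a description.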

How the data were processed

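The authors deposited 1 table with a whole-number count and an FPKM value per gene and sample. Per the labels' protocols, libraries were strand-specific (dUTP), poly(A)-selected and carried molecular identifiers. Per the submitters' processing notes, cutadapt 1.9, HISAT2 2.0.4, UMI-tools, StringTie 1.3.4d, DESeq2, edgeR and GRCm38 were named, with no role stated. Whether counts were collapsed on the identifiers is not given in the sources used here. The FPKM of 0.0001 that the deposited table gives every count of 0 was read as 0. Symbols and positions came from GENCODE M21 and named 55141 of 55401 IDs.

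Counts were tested with edgeR 4.0.16 (R 4.3.3; glmQLFit and glmQLFTest, TMM, two-sided), all 12 samples in 1 fit with a mean per group, over 14313 genes with mean FPKM of at least 1, with Benjamini-Hochberg adjustment over these genes. Genes with an adjusted p under 0.05 were called. SE is of the log2 change. Ratios were tested by exact permutation within day or genotype (400 arrangements, 10 tests). The procedure was tested on simulated data with the same replicate spread set for every gene. That spread was not taken from these replicates, so the check gives no error rate for them. Members and lists were chosen with earlier results of these data known. Named genes were the members, Cthrc1, per list and comparison at most the 2 largest called rises and falls, and the 5 genes closest to Col1a1, Col3a1 and Col5a1 by Pearson r of log2 CPM. Mia3, Crtap, Mmp9 and Col24a1 lie outside that rule and were named after their values were seen. Alternatives were DESeq2 1.42.0, limma 3.58.1, other scalings, no filter, counts divided by 4, a replicate block, a hair follicle covariate, fits of the compared samples only and leaving out each replicate.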

Additional observations from a re-analysis of the deposited data

How the results depend on the processing

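The number of members called depended on the fit. On day 0 between genotypes (1 in the reported fit) DESeq2 gave 5, limma 4 with either pseudocount and the replicate block 4. These fits called 2787, 601 and 694, and 883 of all tested genes against 827 in the reported fit. No filter on low values, the hair follicle covariate and a fit of the compared samples alone each gave 0. They called 275 of 34303, 7 and 19 genes in all. Averaged over days (0) DESeq2 gave 5, with 1467 genes called against 80. In WT between days (1) the hair follicle covariate gave 0 and the compared samples alone 2, with 18 and 2102 genes called against 1880. In Cthrc1-/- between days (1) DESeq2, limma with either pseudocount, total-count scaling and the hair follicle covariate each gave 3. These fits called 1409, 775 and 773, 747 and 529 of all tested genes against 209 in the reported fit. No filter and the compared samples alone gave 0 there, with 159 and 89 genes called. Without 1 replicate the member counts ran from 0 to 5 on day 0, 0 to 4 averaged, 1 to 2 in WT and 0 to 2 in Cthrc1-/-. Over all tested genes the counts ran from 18 to 2146, 14 to 590, 527 to 3005 and 5 to 911.

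With the hair follicle covariate, log2 changes that turned sign were Col5a3 on day 0 (0.81), Col1a1 (1.11) and Col1a2 (0.81) between days in WT, Col11a1 averaged over days (-0.011), and the interaction of Col1a1 (-0.20), Col3a1 (-0.65), Col5a1 (-0.20) and Col5a2 (-0.32). The hair follicle levels did not overlap between genotypes on day 0 or between days in WT. The Col5a3 interaction turned to 0.51 and 0.63 with limma and 0.54 with the replicate block, and averaged Col11a1 to -0.0004 with the block. Without 1 replicate Col5a3 ran from -2.15 to 0.12 on day 7 and from -0.87 to 1.37 in the interaction, averaged Col11a1 from -0.13 to 0.12 and Col3a1 in WT between days from -0.072 to 0.42. The cause was not tested.

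Replicate numbers recur in the titles, and 2 of 12 correlations of same-numbered deviations were over 0.1, both for replicate 3. They were 0.4265 between Cthrc1-/- day 0 and day 7 and 0.1369 between the genotypes on day 7. The rest ran from -0.2317 to 0.0812, and the numbers were not taken as pairs. With the replicate block the ratio differences were unchanged in size, at 0.61 (Col3a1 to Col1a1, day), 0.34 and 1.34 (Col5a1 to Col1a1, genotype and day) and -0.82 (Col1a1 to fibroblast markers, genotype). None passed. That test has so few arrangements that a ratio cannot pass on its own after adjustment over 10 tests. With 1 FPKM added the Col3a1 to Col1a1 difference between days was 0.60 (adjusted p 0.05). Without 1 replicate it was 0.51 to 0.74 between days and -0.010 to 0.22 between genotypes, Col1a1 to Col1a2 was -0.0024 to 0.14 between genotypes and Col5a1 to Col1a1 0.26 to 0.40.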
